A study of Mus musculus with 4 samples.

Results

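Oncostatin M receptor and the IL-6 family signalling genes were followed across ageing in mouse hematopoietic stem and progenitor cells (HSPCs). The set comprises 7 of the 28692 genes listed for each pool, found by their symbols: the receptor chains Osmr, Il6st, Il6ra and Lifr, the kinase Jak1, the transcription factor Stat3 and the inhibitor Socs3. The set was chosen by the age change of Osmr in these same data, with the other 6 genes added as its known signalling partners. These genes and a wider list of pathway genes were drawn up with earlier results of these data known. The counts of genes called among them are therefore descriptions. The levels of Osmr in young and aged cells are therefore given as a description without a test, and age was tested in 5 of the other 6 genes, Lifr having too few UMIs.

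4 pools of Lin-, Sca1+, cKit+, Flt3- HSPCs from the bone marrow of male C57BL/6-CD45.2 mice were captured on the 10x Chromium v2 system, which counts the 3' ends of transcripts as unique molecular identifiers (UMIs). Young pools came from mice of 2 to 3 months (2 mice in young A and 3 in young B) and aged pools from mice of 17 to 18 months (3 mice in aged A and 2 in aged B), and the labels name no transgene or treatment for either group. Pools A were captured and sequenced at the HalioDX facility and pools B at the TGML facility. By the paper's methods, the cells of pools A and of pools B were also collected in 2 separate batches. Facility and batch therefore cannot be told apart. The paper gives more reads per cell for aged A and young B than for young A and aged B. Within a facility, age therefore went along with sequencing depth, in opposite directions at A and B, and the part of this depth was not tested. Mice were mixed within a pool, so the pool was the replicate (n = 2 per age) and differences between mice could not be seen. Ages were taken from the titles and source names, since the descriptions written for young B and aged A give the opposite age.

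After removal of cells over 2 standard deviations from the mean of log UMIs in a pool, 14915 of 15566 barcodes remained, from 2244 to 5189 per pool, with pool medians of 5674 to 6719 UMIs per cell. Of the kept barcodes, 99 occurred in more than 1 pool. The genes of the sort were read in every pool: Kit at 71.7 to 164 CPM (the UMIs of a gene scaled to the same total of UMIs in each pool) and Ly6a, the gene of Sca1, at 163.6 to 354.8 CPM, while the summed level of 6 mature lineage genes was 1.86 to 6.45 CPM. Flt3, whose protein was gated out, was still read at 48.0 CPM in young A and 15 CPM in young B and at 10.5 and 2.40 CPM in aged pools A and B. In bulk sums of a pool, more cells of a kind and more RNA per cell cannot be told apart. Non-primed cells, meaning cells of clusters given neither a lineage-primed nor a cell cycle name, made up 62.5% and 64.1% of the young pools and 79.3% and 79.2% of the aged pools. The class includes a small cluster marked by plasma cell genes (plasma-like, 30 aged and 6 young cells).

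Cytokines of the IL-6 family signal through receptors that share the chain gp130, encoded by Il6st. Oncostatin M binds gp130 together with the oncostatin M receptor chain (Osmr), leukemia inhibitory factor binds gp130 together with its receptor chain (Lifr), and IL-6 binds its own receptor chain (Il6ra) before engaging gp130. The bound receptors activate Janus kinases such as Jak1, which phosphorylate Stat3, and Stat3 in turn induces Socs3, an inhibitor that binds gp130 and shuts the signal off. In bone marrow, oncostatin M is known as a product of blood cells that acts on the stroma and on blood cell formation.

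Osmr (ENSMUSG00000022146) lies on the minus strand of chromosome 15 from 6813577 to 6874969 (GRCm38). Its promoter is shown as the sequence of the gene that defined the set, beside that of Il6st, its shared partner chain, and that of Socs3, the member that passed the test for age. Each run is the 250 bases before the annotated start of the gene in RefSeq (GRCm38.p6), read 5' to 3' on the strand of the gene, with capitals for the STAT motif TTCNNNGAA. The RefSeq starts of Osmr and Socs3 lie inside the longer gene bounds given here. Their whole windows lie inside those bounds too, so they are not upstream of the start that the longer bounds give.
Osmr (chr15:6874314-6874563, minus strand): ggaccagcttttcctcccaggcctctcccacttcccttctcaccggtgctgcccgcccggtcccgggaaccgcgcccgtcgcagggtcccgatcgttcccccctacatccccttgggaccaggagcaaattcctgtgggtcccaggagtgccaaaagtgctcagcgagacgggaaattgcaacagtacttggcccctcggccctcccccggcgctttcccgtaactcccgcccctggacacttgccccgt
Il6st (chr13:112463820-112464069, plus strand): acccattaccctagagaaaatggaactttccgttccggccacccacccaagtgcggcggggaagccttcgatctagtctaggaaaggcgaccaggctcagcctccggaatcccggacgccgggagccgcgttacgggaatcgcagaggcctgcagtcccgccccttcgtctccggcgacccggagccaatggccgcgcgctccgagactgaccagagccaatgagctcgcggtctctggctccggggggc
Socs3 (chr11:117969367-117969616, minus strand): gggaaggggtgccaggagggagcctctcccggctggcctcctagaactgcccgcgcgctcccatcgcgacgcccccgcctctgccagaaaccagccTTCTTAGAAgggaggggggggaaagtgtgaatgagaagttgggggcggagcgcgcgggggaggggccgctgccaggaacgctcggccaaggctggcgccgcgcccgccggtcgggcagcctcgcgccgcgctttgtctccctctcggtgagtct
The motif reads the same on either strand, and 7.02% of the 32851 promoter windows of this length in the table hold it. Among the 7 members, all of which matched the table, only the Socs3 window held a match, TTCTTAGAA, whose first base lies at position -154 from the start. The Osmr window contained 18 CG dinucleotides at a GC content of 66%, and the Il6st window 26 at 66%. The motif TGANTCA, the AP-1 site bound by Fos and Jun proteins, was in none of the members' windows, against 6.75% of all windows.

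Aged cells held 194 of the Osmr UMIs and young cells 1. The pools held 1 and 0 Osmr UMIs in young A and young B, against 102 in aged A and 92 in aged B, which corresponds to 0.03, 0, 4.91 and 2.76 CPM. Both aged pools thus lay above both young pools, a pattern that 18.1% of all genes tested shared. Osmr was read in 100 of 3328 cells of aged A (3.00%, exact 95% interval 2.45 to 3.64%) and in 88 of 4154 cells of aged B (2.12%, 1.70 to 2.60%). In the young pools it was read in 1 of 5189 cells of young A (0.019%, interval up to 0.107%) and in 0 of 2244 cells of young B, for which the exact interval reaches 0.164% and the limit set by 3 counts is 0.134%, both for counting error alone. Set over all UMIs, the aged pools held 189.6 times the Osmr UMIs of the young pools, a ratio resting on 1 young UMI. Its interval of 33.6 to 7527 covers counting error alone. It is no test of age, since Osmr was chosen for this change. The fitted log2 fold change was 7.43 ± 0.67 (standard error), a value that depends on the prior count added to the young pools and ran from 6.76 to 9.39 over the other settings (9.39 without young A, 8.59 with cells thinned to 3000 UMIs). With each cell thinned to 3000 UMIs, the share of Osmr-positive cells was 1.49% in aged A and 1.04% in aged B, and no young cell was positive. Osmr-positive cells were thus few in each aged pool and nearly always carried a single UMI, since only 1 cell in aged A and 4 in aged B held more.

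**Figure D1:**
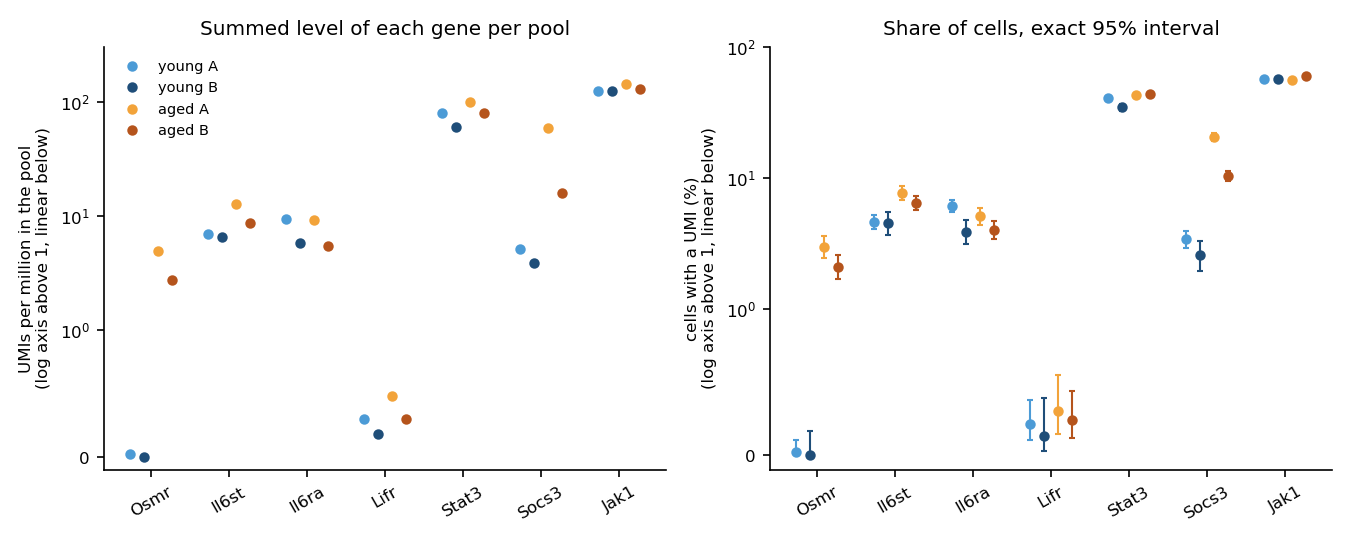
Level of the 7 members in each pool. Left, CPM summed over the kept cells of a pool; right, percent of cells with at least 1 UMI, with exact 95% binomial intervals that cover counting error only. Both vertical axes are logarithmic above 1 and linear below, points are the 4 pools, and levels are to be read within a gene. Osmr is near 0 in both young pools and at 4.91 and 2.76 CPM in the aged pools, Socs3 is highest in aged A (58.3 CPM), and Jak1 sits between 124.6 and 143.1 CPM in all pools.

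Stromal and endothelial cells of the marrow are known to express Osmr, and their markers were read in the same pools. The summed level of 8 stromal genes was 13.7 and 9.82 CPM in young A and B and 7.79 and 7.78 CPM in aged A and B, and none of the 3 that could be tested passed the test for age. In the aged pools, Lepr was at 0 and 0.03 CPM and Cxcl12 at 0.05 and 0.06 CPM, and Col3a1 had no UMI in any pool. Among cells with an Osmr UMI, thinned to 3000 UMIs, no cell held a UMI of 6 of the 8 stromal genes (Lepr, Cxcl12, Kitl, Pdgfra, Col1a1 and Col3a1). Those 6 were read in at most 0.131% of the cells without an Osmr UMI, too rare for their absence to set Osmr-positive cells apart. The other two were read in few of them: Pdgfrb in 1 cell of aged A (1.02% against 1.015% of other cells) and 2 of aged B (2.27% against 1.38%), and Col1a2 in 1 cell of aged A (1.02% against 0.95%). Of 7 endothelial genes, Cdh5, at 0.05 and 0 CPM in the aged pools, was not read in any thinned aged cell, and Emcn was more frequent in Osmr-positive cells of both pools (11.2% against 9.95% in aged A, 9.09% against 6.499% in aged B). Egfl7 (32.7% against 33.7%, 40.9% against 32.55%) and Esam (41.8% against 33.8%, 26.1% against 34.3%) were frequent in both kinds of cell, and none of the 7 was less frequent in both pools. The summed level of 7 endothelial genes, some of which stem cells also express, was 320.8, 285.1, 384.8 and 330 CPM in young A, young B, aged A and aged B, and that of 6 macrophage genes 19.8, 23.9, 16.4 and 16.8 CPM. Macrophage genes were rare in both kinds of cell. Of the Osmr-positive cells, 1 of 98 in aged A held Cd68, and no other of 6 such genes was read in either pool. In the other cells, Cd68 was read in 2.91% in aged A and 2.68% in aged B, and the remaining genes in at most 0.72%. The summed level of 6 plasma cell genes moved with age in the same direction as Osmr. It was 142.3 and 128.4 CPM in young A and B and 1360 and 382.9 CPM in aged A and B. Sdc1, one of the 6, was at 5.05 and 4.88 CPM in young A and B and 5.87 and 1.44 CPM in aged A and B. It was thus lower in aged B than in young B. Of the 6, 2 (Igha and Ighg2b) were called higher by edgeR, beside 1.6% of all genes tested. Igha was at 5.27, 0.18, 499.3 and 82.1 CPM and Ighg2b at 0, 0, 213.5 and 103.4 CPM in young A, young B, aged A and aged B, and Igha was read in 53.1% of Osmr-positive and 47.3% of other cells of aged A. In aged B, it was read in 4.55% and 2.17% of these cells. Of the 6 plasma cell genes, 2 were more and 2 less frequent in Osmr-positive cells of both pools. The part of plasma cell RNA and of free RNA in the Osmr counts was not tested.

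Within the aged pools, Osmr-positive cells lay mostly outside the primed and cycling clusters. Clusters were built without the genes of the pathway, and Osmr was read in 177 of 5928 aged non-primed cells (2.99%, interval 2.57 to 3.45%, median depth 5893 UMIs), in 6 of 624 lineage-primed cells (0.962%, 0.354 to 2.08%, median 6952 UMIs) and in 5 of 930 cycling cells (0.538%, 0.175 to 1.25%, median 9932 UMIs). The share was thus lowest in the cells with the deepest libraries. In CPM, non-primed cells held 6.14 in aged A and 3.68 in aged B, primed cells 1.97 and 0.39, and cycling cells 1.02 and 0.30. After thinning, 46 of 2489 non-primed, 1 of 333 primed and 0 of 330 cycling cells were positive in aged A, and 41 of 3286, 1 of 274 and 1 of 590 in aged B. Non-primed clusters held 92.2% of the Osmr UMIs of aged A and 96.7% of those of aged B, with 79.3% and 79.2% of the cells.

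Among single clusters, named here only where their leading genes matched a marker list, Osmr was read in 14 of 15 clusters of aged cells and in 1 of 15 of young cells. The highest pooled aged level was in the tgf-like cluster, marked by immediate-early genes such as Fos and Nr4a1 (6.64 CPM over both aged pools, 7.45 in aged A and 4.42 in aged B). It was followed by cluster 0, led by Ramp2 and Cldn5 (5.89 CPM, 6.82 and 5.46), the ifn-like cluster of interferon-response genes (5.78 CPM, 6.41 and 5.51) and cluster 5, led by Slc39a1 and Spry2 (5.23 CPM, 6.95 and 3.32). Cluster 1 (3.46 CPM, 4.03 and 3.19), cluster 4 (3.03 CPM, 5.71 and 1.36) and cluster 3 (2.57 CPM, 3.97 and 2.05) came next. The lowest levels were those of erythroid-primed (pEr-like, 1.70 CPM), neutrophil-primed (pNeu-like, 1.07 CPM), megakaryocyte-primed (pMk-like, 0.73 CPM), replicating (rep-like, 0.66 CPM) and dividing (div-like, 0.29 CPM) cells, each resting on 1 to 4 UMIs. The pMast-like cluster was led by Prss34, Mcpt8 and Fcer1a. Its name follows the mastocyte-primed (pMast) cluster of the paper and is no test of cell type. No Osmr UMI was found in its 59 aged cells, too few to set it apart (exact interval up to 6.06% of cells). Ranges over the aged pools overlapped between neighbours in this order throughout. Within each aged pool, the tgf-like and ifn-like clusters and clusters 0, 1, 3, 4 and 5 all lay above the pEr-like, pNeu-like, pMk-like, rep-like and div-like clusters. The pL1-like cluster, led by the lymphoid genes Xcl1, Cxcr6 and Trbc2, and the plasma-like cluster held 1 Osmr UMI each and are left out of this order. Without the tgf-like cluster, an alternative chosen after the data had been seen, Osmr was at 0.03, 0, 4.46 and 2.71 CPM in young A, young B, aged A and aged B.

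**Figure D2:**
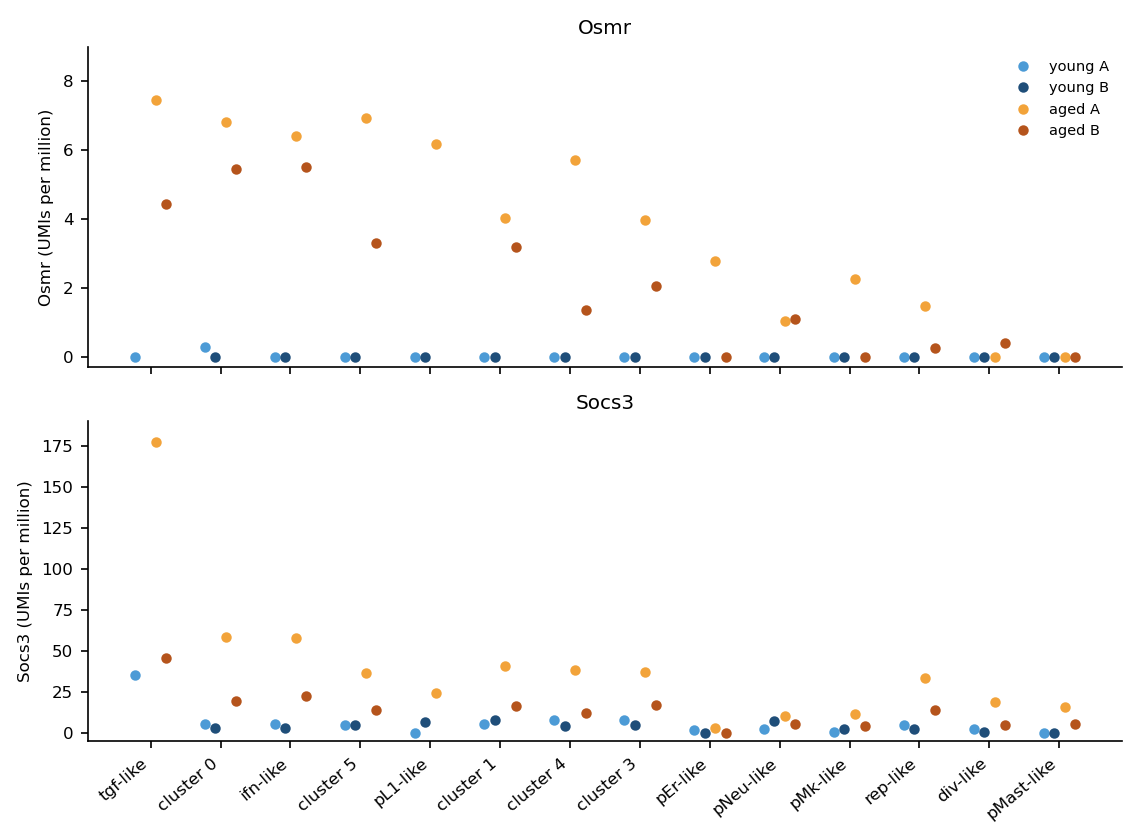
Level of Osmr (top) and Socs3 (bottom) in each cluster and pool, as CPM on linear axes. Each point is a pool with at least 20 cells in the cluster, and clusters are ordered by the pooled aged level of Osmr. Young pools are at 0 for Osmr in all clusters but cluster 0 of young A, and the Socs3 level of aged A in the tgf-like cluster (177.4 CPM) lies above every other point.

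Cells with an Osmr UMI more often held UMIs of stem cell genes than the other aged cells. Their median depth was 6290 UMIs in aged A and 8364 in aged B, above the 5661 and 6707 UMIs of the other cells, so cells were thinned to 3000 UMIs before the comparison. Procr, which encodes the stem cell surface protein EPCR, was read in 60.2% of Osmr-positive and 40.3% of other cells of aged A, and in 62.5% and 43.4% in aged B. Mllt3, a regulator of stem cell maintenance, was read in 68.4% against 55.1% in aged A and in 62.5% against 55.9% in aged B. Of 10 genes of long-term stem cells, 6 were more frequent and 1, Fgd5, less frequent in Osmr-positive cells of both pools. Of 5 genes of more advanced progenitors, 4 were less frequent in both pools, among them Cd34 (17.3% against 25.2% in aged A, 11.4% against 14.99% in aged B) and Plac8 (15.3% against 25.3%, 14.8% against 19.8%). The cell cycle program, run on cells that were not thinned, called 99.0% and 98.9% of Osmr-positive cells G1, against 94.7% and 91.9% of other cells. Within non-primed cells alone, only Procr (63.3% against 47.1% in aged A, 61.2% against 51.4% in aged B) and Mecom remained more frequent in both pools, while Fgd5 and Kit were less frequent. These shares are over cells of 2 pools and carry no test.

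Few Osmr-positive cells held a UMI of the partner chains. Before thinning, Il6st, the chain that completes the oncostatin M receptor, was read in 10 of 100 Osmr-positive cells of aged A (10.0%, interval 4.90 to 17.6%) and in 9 of 88 of aged B (10.2%, 4.78 to 18.5%), against 7.65% and 6.39% of other cells. Stat3 was read in 52.0% and 55.7% of Osmr-positive cells, against 42.7% and 43.5% of other cells. Lifr was read in 0 and 2 of them. Il6st, Jak1 and Stat3 were all read in the same cell in 7 of 100 and 3 of 88 Osmr-positive cells. After thinning, the shares of Il6ra, Il6st and Stat3 were above those of other cells in both pools, resting for Il6st on 5 and 4 cells, and that of Jak1 was below it in both (34.69% against 34.74% in aged A, 22.7% against 32.2% in aged B). Socs3 was more frequent in Osmr-positive cells of aged A (18.4% against 11.98%) and less frequent in those of aged B (3.41% against 4.78%).

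**Figure D3:**
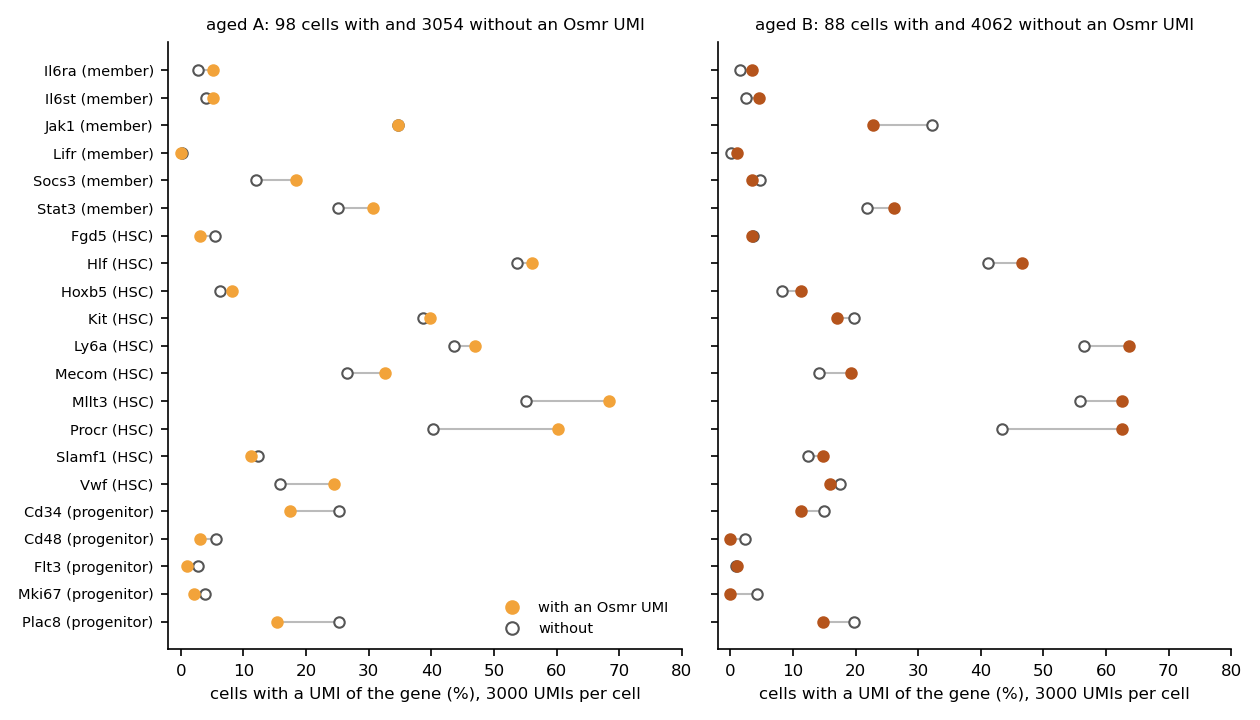
Percent of aged cells with a UMI of each member, stem cell gene (HSC) and progenitor gene, after thinning each cell to 3000 UMIs. Filled points are cells with an Osmr UMI (98 in aged A, 88 in aged B) and open points the other cells (3054 and 4062); grey lines join the pair. Procr and Mllt3 are more frequent, and Cd34 and Plac8 less frequent, in Osmr-positive cells of both pools.

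Lifr (ENSMUSG00000054263), which encodes the receptor chain of leukemia inhibitory factor, lies 215645 bases from Osmr on the same chromosome (chromosome 15 from 7090614 to 7197489, plus strand). It was read at 11, 3, 10 and 10 UMIs in young A, young B, aged A and aged B (0.30, 0.18, 0.48 and 0.30 CPM), too few to be tested. Young and aged pools overlapped. Lifr was found in 0.134 to 0.3005% of the cells of a pool, with intervals that overlapped among all pools. Of the 6 protein-coding genes within 500 kb of Osmr, 2 were tested and none was called. Rictor, the nearest gene on the other side (13176 bases away), which encodes a subunit of mTOR complex 2, was at 12.2 and 8.11 CPM in the young and 15.3 and 7.39 CPM in aged A and B (log2 fold change 0.06 ± 0.19, adjusted p = 0.93 by edgeR's quasi-likelihood test).

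The age contrast over whole pools called 275 of 13555 genes tested (2.03%) at an adjusted p under 0.05 by edgeR, with 217 higher (1.6% of those tested) and 58 lower (0.428%) in aged cells. Of the 5 tested members other than Osmr, 1 was called. The aged levels of 3 of them, Il6st, Socs3 and Jak1, lay above both young levels, a pattern that 18.1% of all genes tested shared. With no term for the platform in the fit, no gene was called by edgeR (1103 passed an unadjusted p of 0.05).

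Il6st (ENSMUSG00000021756, chromosome 13 from 112464070 to 112510086, plus strand), the shared gp130 chain, did not pass the threshold. Its level was 6.997 and 6.46 CPM in young A and B and 12.8 and 8.71 CPM in aged A and B. The aged pools were both above the young pools, but the difference of 0.60 ± 0.19 (log2) had an adjusted p of 0.22 by edgeR. It was read in 4.66% and 4.55% of young cells and in 7.72% and 6.48% of aged cells, and after thinning in 2.197% and 2.28% of young and 4.09% and 2.48% of aged cells. Across clusters, no Il6st UMI was found in the 161 young and 59 aged pMast-like cells, and pEr-like cells had 1.94 CPM in young and 0.85 CPM in aged pools. In the rep-like cluster, the aged pools (10.3 and 9.53 CPM) were above the young pools (5.39 and 3.85 CPM), as in clusters 3 and 4. Aged pools were above young pools in 3, below in 1 and overlapping in 8 of the 12 clusters with at least 20 cells in every pool.

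Il6ra (ENSMUSG00000027947, chromosome 3 from 89864059 to 89913196, minus strand), which encodes the IL-6 binding chain, had like levels at both ages within each facility. It was at 9.38 CPM in young A and 9.19 CPM in aged A, and at 5.73 CPM in young B and 5.47 CPM in aged B. The age difference was -0.10 ± 0.19 (log2, adjusted p = 0.85 by edgeR), and the ages overlapped. Its estimate ran from -0.36 without young B to 0.14 without young A, in fits that also had no platform term. By cluster, leaving aside the few plasma-like cells, Il6ra was lowest in pEr-like cells (0.78 CPM in young and 0.85 CPM in aged pools), in which 2 and 1 UMIs were read. It was at 13.5 and 11.8 CPM in the young and aged pNeu-like cells, and at 31.9 CPM in young pL1-like cells, a value resting on 10 UMIs in 54 cells.

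Jak1 (ENSMUSG00000028530, chromosome 4 from 101152367 to 101265282, minus strand), a kinase bound to gp130, did not pass the threshold. Its levels were 124.6 and 124.8 CPM in young A and B and 143.1 and 129.5 CPM in aged A and B, a difference of 0.08 ± 0.17 (log2, adjusted p = 0.88 by edgeR). It was read in 56.2 to 59.8% of the cells of each pool. Its aged levels across the clusters with at least 100 cells ran from 85.1 CPM in pMk-like to 149.5 CPM in cluster 1, and its young levels in cluster 1 were 154.0 and 139.6 CPM. The change of Jak1 within non-primed cells was -0.01 ± 0.17 (log2, adjusted p = 0.99 by edgeR).

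Stat3 (ENSMUSG00000004040, chromosome 11 from 100885098 to 100939540, minus strand), the transcription factor downstream of gp130, was at 78.8 and 60.4 CPM in young A and B and at 99.4 and 78.7 CPM in aged A and B. Each aged pool was above the young pool of its platform, but aged B and young A were level, and the difference of 0.31 ± 0.16 (log2) had an adjusted p of 0.47 by edgeR. Stat3 was read in 41.0% and 34.6% of young and 43.0% and 43.7% of aged cells. Leaving aside the few plasma-like cells, it was lowest in pEr-like cells, at 43.9 CPM in young and 29.7 CPM in aged pools, and both aged pools (31.9 and 26.4 CPM) were below both young pools (42.8 and 46.9 CPM) there. In aged cells it was highest in the tgf-like cluster (128.7 CPM, 140.5 in aged A and 96.4 in aged B). Within non-primed cells the age difference was 0.24 ± 0.16 (log2, adjusted p = 0.60 by edgeR).

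Socs3 (ENSMUSG00000053113, chromosome 11 from 117966079 to 117970047, minus strand), the feedback inhibitor, rose with age. Its level was 5.13 CPM in young A, 3.84 CPM in young B, 58.3 CPM in aged A and 15.8 CPM in aged B. The aged pools were both above the young pools and differed widely from each other. The log2 fold change was 2.76 ± 0.36 with an adjusted p of 0.037 by edgeR, the only member past the threshold. Socs3 was read in 3.43% and 2.58% of young cells and in 20.6% (interval 19.3 to 22.0%) and 10.4% (9.46 to 11.3%) of aged cells. After thinning, these shares were 1.58% and 1.05% in the young and 12.2% and 4.75% in the aged pools. Up to 12 Socs3 UMIs were found in a single cell of aged A, against at most 3 in a young cell. With no platform term the call was lost (log2 fold change 2.91, adjusted p = 0.22 by edgeR). Fits with a pool left out also had no platform term. Their log2 fold change was 1.94 without aged A and 3.48 without aged B. Each such fit leaves 1 pool at an age, so only the size of the change is given here.

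Immediate-early genes, which respond to stimulation within a short time, tissue dissociation included, were highest in aged A as well. The summed level of 10 such genes was 1033 and 356.6 CPM in young A and B and 3702 and 803.2 CPM in aged A and B. Of these genes, 3 (Atf3, Dusp1 and Nr4a1) were called higher in aged cells and none lower, beside 1.6% and 0.428% of all genes tested. For Dusp1 and Nr4a1 the ages overlapped, with aged B (43.8 and 8.08 CPM) below young A (65.4 and 9.60 CPM). Both aged levels of Atf3 lay above both young levels. Fos was at 95.02, 49.3, 887.7 and 83.7 CPM in young A, young B, aged A and aged B. Cells with a Socs3 UMI more often held a Fos UMI, in 87.0% against 62.8% of other cells in aged A and 37.4% against 20.5% in aged B. The shares were 37.1% against 26.9% in young A and 17.2% against 16.6% in young B. Cells were not thinned here, so deeper cells can hold UMIs of both genes more often, and the part of depth was not tested. The tgf-like cluster, which these genes mark, held 13.2% of the cells and 45.3% of the Socs3 UMIs of aged A, and 3.06% and 9.89% of those of aged B. It held 1.47% of the cells of young A and 0.134% of those of young B. Without this cluster, an alternative chosen after the data had been seen, Socs3 was at 4.70 and 3.85 CPM in the young and 37.5 and 14.7 CPM in the aged pools, with a log2 fold change of 2.44 ± 0.29 and an adjusted p of 0.041 by edgeR. The part of the immediate-early response in the remaining difference was not tested.

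The age difference of Socs3 spread over most clusters. In 10 of the 12 clusters with at least 20 cells in every pool, both aged pools lay above both young pools, the exceptions being the pNeu-like and pEr-like clusters. In cluster 0, for instance, Socs3 was at 5.27 and 3.06 CPM in the young and 58.4 and 19.7 CPM in the aged pools, and in the rep-like cluster at 5.12 and 2.47 CPM against 33.7 and 14.3 CPM. The lowest aged level was that of pEr-like cells (1.70 CPM, 1.17 CPM in young pools), and in young pMast-like cells no Socs3 UMI was found. Over non-primed cells as a class, in which 1.44% of 12847 genes tested were called, its levels were 6.99 and 4.96 CPM in the young and 71.9 and 18.5 CPM in the aged pools. The difference of 2.66 ± 0.37 (log2) just missed the threshold there (adjusted p = 0.055 by edgeR), and passed it with coarser (adjusted p = 0.044) or finer clusters (adjusted p = 0.045). It missed the threshold by more with no platform term (log2 fold change 2.80, adjusted p = 0.26 by edgeR). Fits with a pool left out also had no platform term. Their log2 fold change was 1.77 without aged A, 3.38 without aged B and 2.66 without young B.

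The wider pathway was described by 46 further genes, of which 45 were listed in the files and 39 tested. Of these, 1 was called higher and 1 lower, where 1.6% and 0.428% of all genes tested were called, and the median log2 fold change was 0.12, beside 0.01 over all genes tested. Ebi3, which encodes a subunit of IL-27 that resembles a soluble receptor, fell with age. Its level was 64.7 and 69.6 CPM in young A and B and 21.7 and 16.9 CPM in aged A and B. The log2 fold change was -1.86 ± 0.18 with an adjusted p of 0.022 by edgeR. Both aged pools were below both young pools in 12 of 12 clusters with at least 20 cells in every pool, and within non-primed cells the change was -2.10 ± 0.18 (adjusted p = 0.022). The call of Ebi3 was lost with no platform term (log2 fold change -1.87, adjusted p = 0.13 by edgeR). With a pool left out, again with no platform term, the log2 fold change lay between -2.04 and -1.72. Each such fit leaves 1 pool at an age, so only the size of the change is given here. Ccnd1, which encodes cyclin D1 and is known as a Stat3 target, rose from 26.5 and 24.1 CPM in the young to 59.3 and 57.3 CPM in the pools of aged mice (log2 fold change 1.15 ± 0.16, adjusted p = 0.046 by edgeR). This call passed in 4 of 11 alternative settings and was lost, for instance, with another scaling of the pools (adjusted p = 0.056). Within non-primed cells, Ccnd1 was not called (log2 fold change 1.09 ± 0.16, adjusted p = 0.062 by edgeR).

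**Figure D4:**
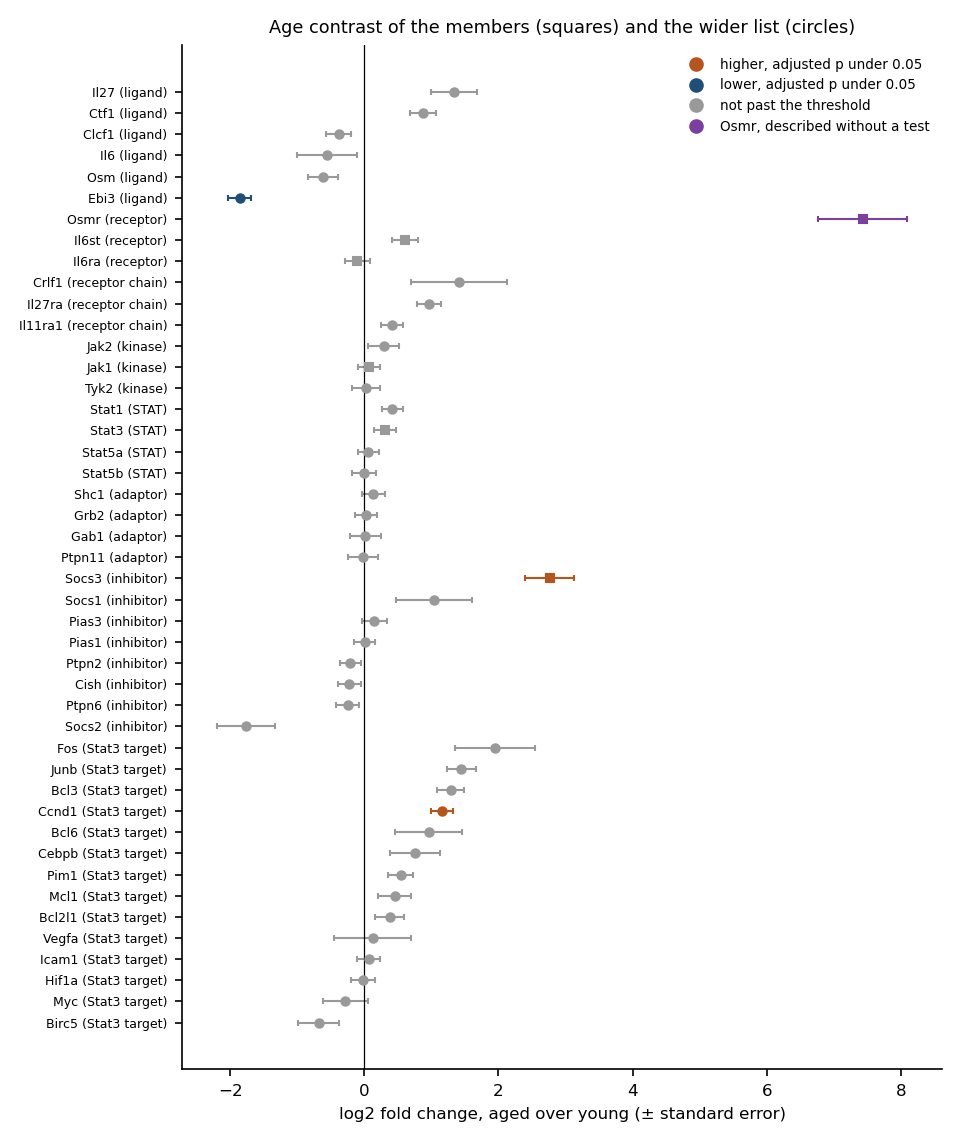
Log2 fold change of aged over young pools with its standard error from the edgeR fit, for the 6 members that could be fitted (squares) and 39 other genes of the pathway (circles), ordered by role. Colours mark the result of the test at an adjusted p of 0.05 over all genes. Socs3 (2.76) and Ccnd1 (1.15) passed upward and Ebi3 (-1.86) downward, and Osmr (7.43) is shown as a description.

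Ligands of the IL-6 family were themselves read in the sorted cells. Osm, which encodes oncostatin M, was at 7.68 and 6.65 CPM in young A and B and 6.398 and 3.605 CPM in aged A and B (log2 fold change -0.62 ± 0.23, adjusted p = 0.29 by edgeR). Its highest level was in the pMast-like cluster, with 56.8 CPM in young and 44.8 CPM in aged pools. No Osmr UMI was found there, but for its 59 aged cells the exact interval reaches 6.06%, above the 4.59% of aged tgf-like cells. Il6 was read at 47, 19, 21 and 24 UMIs in young A, young B, aged A and aged B (log2 fold change -0.56 ± 0.45, adjusted p = 0.64 by edgeR). The pMast-like cluster held 93.9% of the young and 75.6% of the aged Il6 UMIs, although it made up 2.17% of young and 0.789% of aged cells. Within this cluster Il6 was at 47.6 CPM in young and 80.1 CPM in aged cells, on 62 and 34 UMIs. The part of the cluster's size in the whole-pool difference was not tested. In cluster 0, where 3.94% of aged cells held an Osmr UMI, Il6 was read at 0 UMIs in young and 1 in aged cells. Osm was at 2.10 and 2.51 CPM in the young and aged cells of this cluster. Of the 6 ligand genes tested, only Ebi3 was called.

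Of the remaining groups of the pathway, only Ccnd1 was called. Of the other kinases, Jak2 was at 12.8 and 9.21 CPM in young and 21.3 and 8.74 CPM in the pools of aged mice (log2 fold change 0.29 ± 0.23, adjusted p = 0.65 by edgeR). Tyk2 was at 9.49 and 3.66 CPM in young and 11.7 and 3.21 CPM in aged pools (0.02 ± 0.21, adjusted p = 0.97 by edgeR). The 3 other receptor chains tested had log2 fold changes of 0.42 to 1.42, the 3 other STAT genes of -0.01 to 0.42 and the 4 adaptors of -0.02 to 0.13. The 7 other inhibitors ranged from -1.77 to 1.04, and of 14 Stat3 targets tested only Ccnd1 was called, with values from -0.68 to 1.95. These ranges include genes with large standard errors, as drawn in the plot of fold changes.

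The genes whose pattern across aged clusters was most like that of Osmr were Pbxip1 (Pearson r = 0.90), Rdh10 (0.90), Mvp (0.90), Pik3r1 (0.90) and Eef2 (0.89), over 24 sums of a cluster in an aged pool, centred within the pool. Rdh10 encodes a retinol dehydrogenase, Pik3r1 a regulatory subunit of PI3-kinase, Mvp the major vault protein and Eef2 a translation elongation factor. Within the pathway, the most similar genes were the inhibitor Cish (r = 0.82) and the kinase gene Pim1 (r = 0.81), followed by Socs2 (0.75) and Socs1 (0.74). Of the members, Stat3 was at 0.71, Socs3 at 0.68, Jak1 at 0.68, Il6st at 0.36 and Il6ra at 0.29. Many genes outside the pathway were as similar. With Osmr itself at rank 1 of 13555 genes, Cish ranked 62, Pim1 89, Stat3 524, Socs3 720 and Jak1 745. The points share cells, libraries and depth within a pool, and the values are descriptions.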

How the data were processed

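Single-cell RNA-seq of 4 pools was analysed. The authors deposited raw UMI counts per gene and cell, made with Cell Ranger 2.2.0 on GRCm38.p4 (mm10) per the submitters' notes; the gene annotation is not named in these sources. Columns of gene identifiers and symbols came with these deposited counts. Pools were assigned to ages by title and source name. The members and lists were chosen with earlier results of these data known. Cells over 2 standard deviations from the mean of log UMIs in a pool were left out, which was also the only treatment of doublets. Cells were clustered in Seurat 5.3.0 (2000 variable genes without the pathway genes, 15 components, resolution 0.5) after cell cycle scoring with scran 1.30.0, and clusters were named from marker lists. Counts were summed per pool and tested with edgeR 4.0.16 (R 4.3.3, TMM scaling, filterByExpr, quasi-likelihood test, platform as a block), with Benjamini-Hochberg adjustment over all genes and a threshold of 0.05; the standard error is the size of the log2 fold change divided by the square root of F. The platform letter pairs the pools because each facility handled 1 pool of each age, and deviations from the age mean correlated within a facility (r = 0.58). The pools of a facility were not matched for reads per cell, which were higher in aged A and young B. Cells are not replicates, and each pool mixes 2 or 3 mice. With the platform as a block, p-values rest on how the age difference varied between the facilities, with that variance moderated over all genes. They do not measure the spread between the pools of an age. Intervals are exact binomial at 95%, floors allow 3 counts, and both cover counting error only. Of the genes listed, 28339 of 28692 matched the annotation used for positions. Named genes were the members, called genes of the wider list with Osm, Il6, Jak2 and Tyk2, the nearest neighbours of Osmr within 500 kb, and the 5 genes most correlated with Osmr (log2(CPM + 1), units of at least 50 cells). DESeq2 1.42.0, other scalings, filters, resolutions, thinning to 3000 UMIs and leaving out each pool were alternatives. Fits with a pool left out had no platform term. The tests were tested on simulated data. In that single simulation, edgeR found 94 of 103 genes given the larger fold and 27 of 97 given the smaller, with 32 false calls. DESeq2 found 89 and 13 of them, with 21 false calls. The share of false calls among the calls of each was thus well above the threshold of 0.05.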

Additional observations from a re-analysis of the deposited data

How the results depend on the processing

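Depth limits precision: Osmr rests on 194 aged UMIs and Lifr on 3 to 11 UMIs per pool, and n = 2 pools per age limits each test. Of the genes over whole pools, 275 were called, and 523 by DESeq2, 774 with no filter on low counts, 177 without the tgf-like cluster (chosen after the data had been seen) and 0 to 287 with a pool left out (4 without aged A, 0 without aged B, 160 without young B). With no replicate block for the platform, edgeR called 0 genes (1103 at an unadjusted p under 0.05) and 0 members. Every fit with a pool left out in this section also had no platform term, so its counts cannot be laid to the missing pool alone. Of the wider list, 2 genes were called, and 1 with RLE scaling, 5 by DESeq2, 7 with no filter, 0 with no replicate block, 4 with all barcodes, 1 without the tgf-like cluster and 0 to 6 with a pool left out. Within non-primed cells, 185 genes were called, and 356 by DESeq2, 839 with no filter, 0 with no replicate block (923 at an unadjusted p under 0.05) and 1 to 283 with a pool left out. Since false calls exceeded the threshold in simulated data, every call is less certain than its adjusted p states. This holds for Ebi3 and the calls by DESeq2 as well as for Socs3 and Ccnd1, whose adjusted p lay near 0.05. The mean share of Osmr-positive cells in the aged pools went from 2.56% to 1.26% with cells thinned to 3000 UMIs. Leaving out 1 pool, with no platform term, moved the log2 difference of Il6ra between -0.36 and 0.14 and that of Jak1 between -0.048 and 0.16. Both changed sign without young A (0.14 and -0.048) and without aged B (0.072 and -0.028). Such fits do not separate the facility from the age. Within facilities A and B, the aged minus young difference in log2(CPM + 1) was -0.028 and -0.058 for Il6ra and 0.198 and 0.053 for Jak1. Where a setting leaves 1 pool at an age, that pool was assumed to vary like the others. The cause was not tested for any of these changes.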

Other observations

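Some genes of the pathway were not called in the edgeR fit but differed between ages in other settings, and they are named here after their values were seen. Junb, an AP-1 gene, was at 125.5, 55.7, 449.6 and 123.3 CPM in young A, young B, aged A and aged B (log2 fold change 1.44, adjusted p = 0.052 by edgeR), with young A just above aged B. Bcl3, which encodes a regulator of NF-kB, was at 6.80, 4.45, 20.6 and 9.25 CPM (1.29, adjusted p = 0.056 by edgeR). Socs2, an inhibitor of cytokine signalling, was at 43.5, 48.1, 25.2 and 7.54 CPM (-1.77, adjusted p = 0.14 by edgeR). These 3 genes were called by DESeq2.

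Some genes of the list differed more between pools A and B, which differ in facility and in batch of mice, than between the ages. Cebpb, a transcription factor gene of myeloid cells, was at 70.9 and 182.5 CPM in young A and aged A and at 1.10 and 0.87 CPM in young B and aged B. Ctf1, which encodes cardiotrophin 1, was at 11.8 and 23.5 CPM in the A pools and at 0.85 and 1.56 CPM in the B pools. Grb2, an adaptor gene, was at 100.4 and 103.7 CPM against 28.1 and 30.5 CPM. The cause was not tested.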
